A study of Mus musculus with 9 samples.

Results

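The genes described here are the amino acid response genes of the transcription factor ATF4 together with the cytoplasmic aminoacyl-tRNA synthetases, in leukaemic T-cell lines and thymus of the mouse. The list names 53 genes, which were matched by gene symbol, and a gene was taken as measured where a probe was detected (detection p under 0.05) on at least 3 of the 9 arrays. Of the 53 genes, 45 were measured, among 10072 measured genes in all. Where a gene had several such probes, the one brightest on average stands for it. The list was drawn up after differences between the cell lines and thymus in some of these genes had been seen on the same arrays, so the comparisons of the lines with thymus are given as a description, and nothing is read from how many of the listed genes passed a test there.

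The arrays were Illumina MouseWG-6 v2.0 BeadChips, which measure RNA abundance by the brightness of a probe. The samples were 3 cell lines, numbered 3, 175 and 261, made from T-cell leukaemias of mice that carry the Lmo2 gene under CD2 control, with 1 array per line. These were set beside thymus of Lmo2 transgenic mice (3 arrays) and wild-type thymus (3 arrays), and the labels give the strain as C57BL/6 for all 9 samples. Neither the ages of the mice nor the culture conditions of the lines were stated in the labels. Leukaemic origin and growth in culture both set the lines apart from thymus and cannot be told apart in this design. The labels do not say whether the arrays of a thymus group came from separate animals, so p-values measure the spread between these samples, part of which may be technical.

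ATF4 is translated when the initiation factor eIF2 is phosphorylated by kinases that sense amino acid shortage, endoplasmic reticulum stress, haem shortage or double-stranded RNA. It binds, often with a C/EBP partner, to promoters and enhancers of genes for amino acid synthesis, amino acid uptake, charging of tRNAs and control of translation. Because ATF4 is controlled largely at translation, its mRNA need not follow its activity, and its target genes are commonly used as its readout. Developing T cells and T-cell leukaemias take up and make amino acids at a high rate as they divide.

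The C/EBP-ATF composite element bound by ATF4 was searched for in RefSeq promoter windows of the GRCm38.p6 build as the letters TGATGNAA on either strand (TTNCATCA on the other), over 250 bases before and 50 bases after each annotated start. The letters occurred in a window of 11 of the 34 measured members with a window in the table (32.4%) and in 4.51% of the 27025 genes that had one. No other motif was searched for. These windows of 30 bases are shown because their genes include the largest differences described below and 1 of the synthetases, with the motif in capitals and each read 5′ to 3′ on the strand of its gene.
Trib3, chr2:152344028-152344057, minus strand: ttagctcaggtTTACATCAgccgggcgggg
Chac1, chr2:119351038-119351067, plus strand: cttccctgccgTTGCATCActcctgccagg
Asns, chr6:7693214-7693243, minus strand: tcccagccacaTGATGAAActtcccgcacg
Slc1a4, chr11:20332699-20332728, minus strand: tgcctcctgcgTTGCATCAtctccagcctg
Slc7a11, chr3:50443661-50443690, minus strand: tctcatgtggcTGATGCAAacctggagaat
Slc7a11, chr3:50443642-50443671, minus strand: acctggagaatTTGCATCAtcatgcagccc
Tars, chr15:11399655-11399684, minus strand: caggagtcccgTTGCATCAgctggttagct
The Slc7a11 promoter held the element in both orientations, and the pair of windows overlaps. Relative to the annotated start, the element began at base -193 in Chac1, -23 in Asns, -4 in Slc1a4 and -15 in Tars, and 14 bases after the start in Trib3. A match is a description of these letters and not a measured binding site, and genes without the letters in the window may carry an element elsewhere.

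On these arrays Lmo2 itself went against the labels of both the lines and the transgenic thymus. Its probe read 4.39, 4.87 and 4.34 in the lines, 6.95, 6.22 and 5.42 in thymus labelled transgenic and 7.95, 7.9995 and 8.21 in wild-type thymus, on the log2 scale after background correction and quantile normalization that is used for all values here. Lmo2 was detected in 0 of the 3 lines, which by limma were below wild-type thymus (adjusted p = 8.96e-05, at least 6.63-fold) and below labelled transgenic thymus (adjusted p = 0.0381, at least 1.83-fold). The labelled transgenic arrays were lower than wild type by limma (log2 difference -1.86 ± 0.36, SE, adjusted p = 0.0325). The thymus arrays are therefore called "labelled transgenic", "lines" stands for the arrays labelled as Lmo2 cell lines, and the labels do not say whether the probe can detect the transgene. The median intensity of an array was 118.5 to 161.2 and 35.0 to 43.0% of its probes were detected. Arrays of the same group correlated across genes at 0.912 to 0.940 for the lines, 0.944 to 0.967 for labelled transgenic thymus and 0.978 to 0.992 for wild-type thymus. Labelled transgenic arrays 1 and 2 had Xist, the RNA that silences an X chromosome in females, at 12.66 and 11.37, and the other 7 arrays had it at 4.34 to 5.47.

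A set of 270 of the 19490 detected probes (1.39%) read at least 1 log2 unit lower on both labelled transgenic array 2 and wild-type array 1 than on each of the other 4 thymus arrays. The other 8 pairs of 1 labelled transgenic and 1 wild-type array shared 0 to 2 such probes. Among the 82 probes of the listed genes, 9 were in this set, for Eprs, Kars, Phgdh, Shmt2, Slc1a5, Vars and Wars. Only for Phgdh and Slc1a5 was the probe that stands for the gene among them, and their values are given below with and without these arrays. The cause was not tested.

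**Figure D1:**
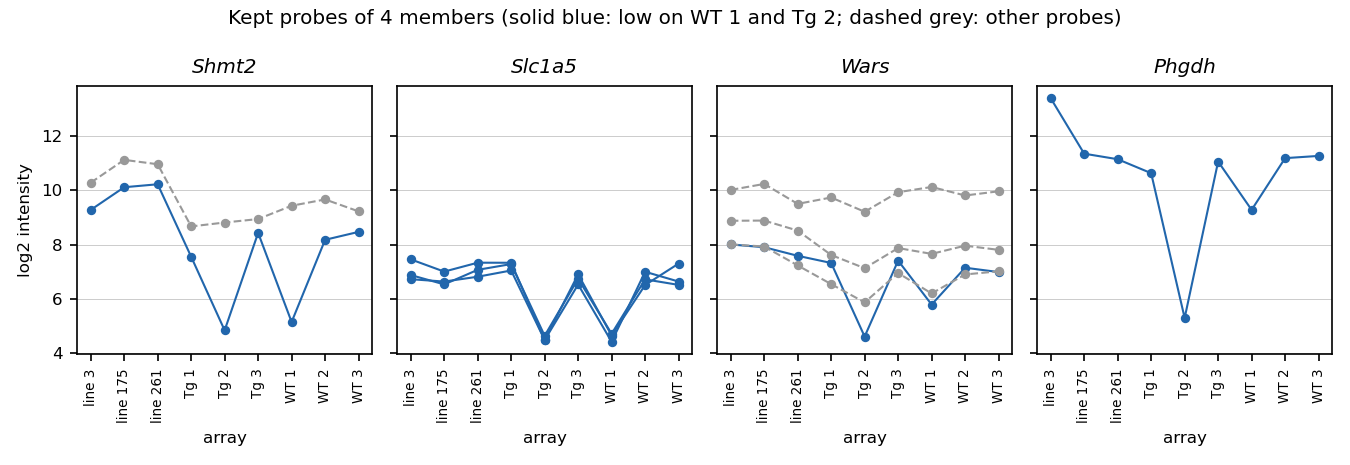
Log2 intensity of every detected probe of Shmt2, Slc1a5, Wars and Phgdh on the 9 arrays (Tg, labelled transgenic thymus; WT, wild-type thymus), where a line joins the values of 1 probe on an axis that starts at 4. Probes drawn in solid blue are at least 1 log2 unit lower on both labelled transgenic array 2 and wild-type array 1 than on the other 4 thymus arrays, and the dashed grey probes of Shmt2 and Wars are not.

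Thymus holds cells other than T cells, and their markers differed between the groups. Of 6 measured macrophage and granulocyte markers, 0 were detected in any line, 5 to 6 in labelled transgenic thymus and 6 in each wild-type array. Their summed level was 7.10 to 7.21 log2 units in the lines, 11.75 to 13.79 in labelled transgenic thymus and 12.09 to 12.83 in wild-type thymus. In every line 4 of 5 measured markers of antigen-presenting cells with MHC class II, and 4 of 5 of natural killer and cytotoxic cells, were also not detected. Of 9 measured T-lineage markers, 8 to 9 were detected in the lines and all 9 on every thymus array, at summed levels of 15.30 to 15.81 in the lines, 15.997 to 16.24 in labelled transgenic thymus and 16.13 to 16.29 in wild-type thymus. Fewer cells of a type and less RNA per cell cannot be told apart in such bulk samples, and the part of cell composition in the differences below was not tested.

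Values of the 45 measured members were mostly higher in the lines, in a list drawn up after some of these differences had been seen. The median of the 45 log2 differences between the lines and wild-type thymus was 1.10, against 0.08 over all 10072 genes, and between the lines and labelled transgenic thymus 1.01, against 0.06 over all genes. Between the lines and wild-type thymus, 22 members passed limma's threshold as higher and 0 as lower, where 24.5% of all genes passed, 12.1% as higher and 12.4% as lower. All 3 lines lay above all 3 wild-type arrays for 28 members and below them for 0, where the groups did not overlap for 46.2% of all genes, with the lines above for 24.6% and below for 21.6%. Against labelled transgenic thymus, 18 members passed as higher and 0 as lower, where 15.7% of all genes passed, 7.23% as higher and 8.45% as lower. The lines lay above all labelled transgenic arrays for 31 members and below them for 1, where the groups did not overlap for 42.4% of all genes, with the lines above for 22.1% and below for 20.3%. At an unadjusted p under 0.05, 0 members were lower than in wild-type thymus and 1 was lower than in labelled transgenic thymus, namely Slc38a2. The 18 members also passed against wild-type thymus, and Aldh18a1, Slc3a2, Tars and Hars passed against wild-type thymus but not against labelled transgenic thymus, a distinction that was not itself tested. The 2 comparisons share the line arrays and are not independent. Among the members that passed, Chac1, Sesn2, Cth, Gpt2, Slc1a4, Slc7a11 and Yars were each detected on fewer than 3 thymus arrays. They met the detection limit only through the lines, and the medians and counts above include them.

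**Figure D2:**
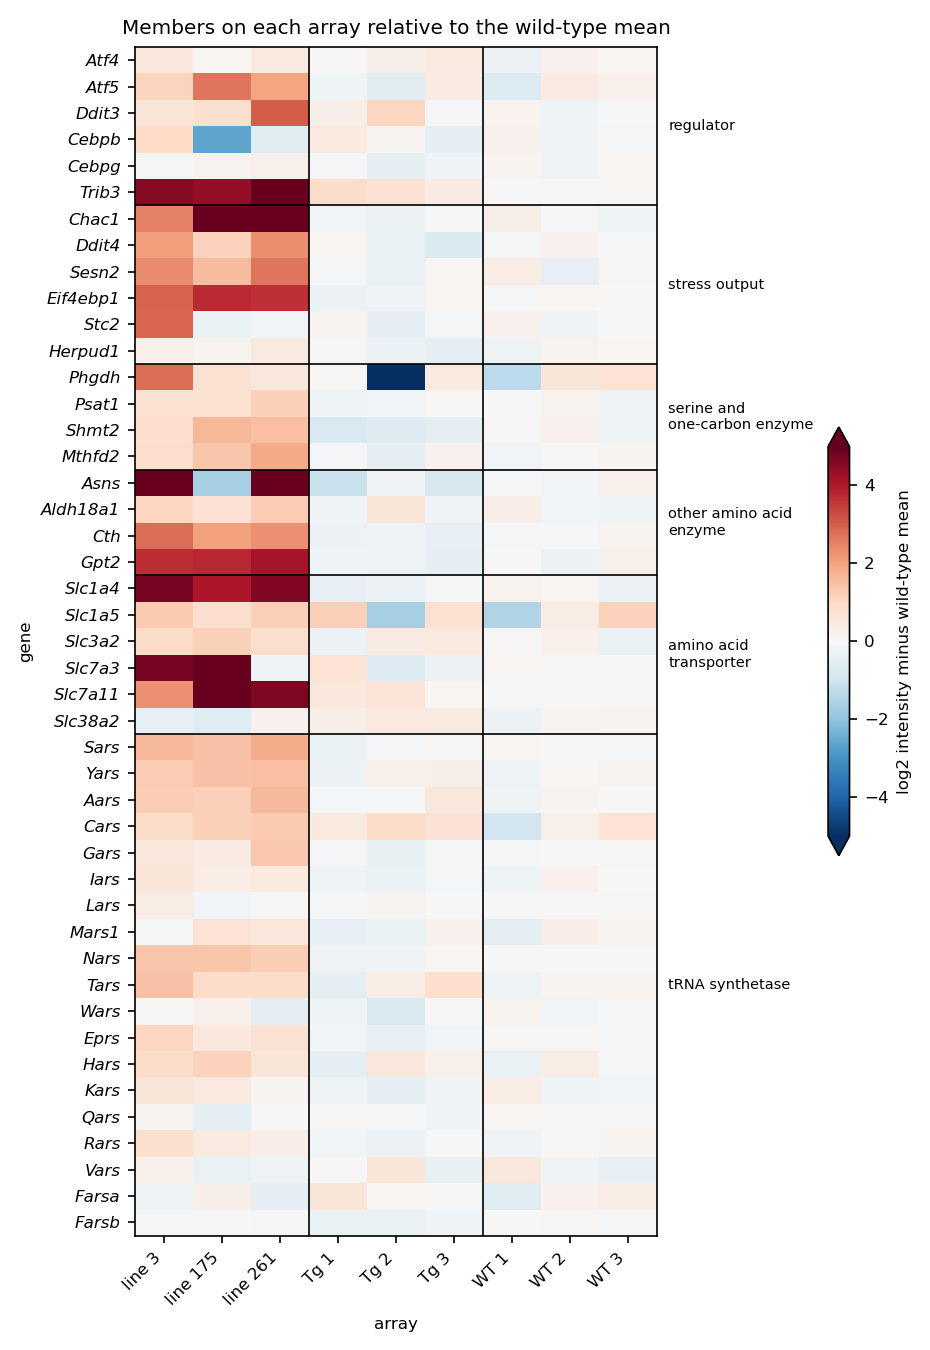
Log2 intensity of each of the 45 measured members (rows, grouped by role) on each of the 9 arrays, as the difference from the mean of the 3 wild-type arrays (Tg, labelled transgenic thymus; WT, wild-type thymus). The colour scale ends at a difference of 5 in either direction and larger values take the end colour; the line columns are mostly above the wild-type mean, with gaps for Asns in line 175 and Slc7a3 in line 261.

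In the text that follows, values are in the order of lines 3, 175 and 261, then arrays 1, 2 and 3 of each thymus group, and a ± after a difference is its standard error from limma with 3 arrays per group. Where a gene was not detected on any array of a thymus group, its true level there is not known, and the fold is given as a lower bound. The bound sets the mean of the lines against the higher, on each array of the dim group, of the probe's own value and the lowest value of any detected probe.

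Among the regulators, the ATF4 mRNA itself differed little on its brighter probe and the pseudokinase gene Trib3 differed most. Atf4 read 12.29, 11.82 and 12.22 in the lines, against 11.73, 12.02 and 12.21 in labelled transgenic thymus and 11.43, 11.93 and 11.82 in wild-type thymus. On this brighter probe the groups overlapped, with a difference of 0.38 ± 0.23 from wild-type thymus and 0.12 ± 0.24 from labelled transgenic thymus. A dimmer probe of Atf4, detected on all 9 arrays, read 11.57, 11.13 and 11.41 in the lines and 10.13, 10.77 and 10.42 in wild-type thymus, without overlap. This dimmer probe gave 0.93 against wild-type thymus, and 1.89 against labelled transgenic thymus, where array 2 read 6.81 and the other arrays 10.48 and 11.15. The size of the Atf4 difference therefore depends on the probe.

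Trib3 encodes a pseudokinase that binds ATF4 and dampens its activity, and is itself an ATF4 target. It read 9.28, 9.15 and 10.61 in the lines, against 5.64, 5.44 and 5.13 in labelled transgenic thymus and 4.70, 4.72 and 4.78 in wild-type thymus. The 3 groups did not overlap, and the probe was detected on every labelled transgenic array but on 0 of the 3 wild-type arrays. The lines were at least 25.8-fold above wild-type thymus and 4.27 ± 0.42 log2 units above labelled transgenic thymus.

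Atf5, a related factor induced with ATF4, read 8.26, 9.81 and 9.14 in the lines, against 6.93, 6.57 and 7.55 in labelled transgenic thymus and 6.46, 7.58 and 7.41 in wild-type thymus. Every line exceeded every thymus array, with differences of 1.92 ± 0.46 from wild-type thymus and 2.05 ± 0.45 from labelled transgenic thymus. Ddit3, which encodes the stress factor CHOP, read 8.30, 8.49 and 10.71 in the lines, against 7.96, 8.73 and 7.63 in labelled transgenic thymus and 7.87, 7.45 and 7.70 in wild-type thymus. Line 261 stood above all other arrays, while lines 3 and 175 overlapped labelled transgenic thymus.

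Cebpb, a C/EBP partner of ATF4, spread more among the lines than between the groups. It read 9.98, 6.33 and 8.40 in the lines, against 9.47, 9.12 and 8.49 in labelled transgenic thymus and 9.20, 8.81 and 8.94 in wild-type thymus. Line 3 was above all thymus arrays and lines 175 and 261 were below all of them, line 261 only narrowly. Cebpb in line 175 was the single case among the 45 members in which a line lay at least 1 log2 unit below all 6 thymus arrays, as 6.74% of all genes did in line 3, 7.47% in line 175 and 6.47% in line 261. Cebpg, the other C/EBP partner on the list, read 10.14 to 10.36 in the lines, 9.61 to 10.03 in labelled transgenic thymus and 9.89 to 10.23 in wild-type thymus.

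The stress output genes act downstream of the ATF4 programme on glutathione, growth signalling and translation. Chac1, which degrades glutathione, read 7.22, 10.15 and 11.06 in the lines, against 4.55, 4.40 and 4.67 in labelled transgenic thymus and 4.996, 4.60 and 4.50 in wild-type thymus. Chac1 was detected in all 3 lines and on 0 of the 6 thymus arrays, at least 22.5-fold higher in the lines than in wild-type thymus and at least 21.5-fold higher than in labelled transgenic thymus. With detection on exactly 3 arrays it was the member just inside the detection limit, followed by Cth, Gpt2, Slc1a4 and Sesn2 with 4 arrays each. Just outside lay Nupr1, a stress-induced chromatin regulator that was detected on 2 arrays, at 4.82, 8.02 and 6.94 in the lines.

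Eif4ebp1, the translation repressor 4E-BP1, read 11.59, 12.40 and 12.31 in the lines, against 8.38, 8.48 and 8.76 in labelled transgenic thymus and 8.57, 8.74 and 8.66 in wild-type thymus. The lines lay 3.44 ± 0.25 above wild-type thymus and 3.56 ± 0.28 above labelled transgenic thymus, with a gap far wider than the spread in any group. Sesn2, a leucine-binding inhibitor of mTORC1, read 7.21, 6.41 and 7.51 in the lines, against 4.72, 4.49 and 4.92 in labelled transgenic thymus and 5.18, 4.40 and 4.90 in wild-type thymus. Sesn2 was not detected in labelled transgenic thymus, where the fold was at least 3.97. Another Sesn2 probe, near background on every array, gave 0.38 against wild-type thymus and 0.09 against labelled transgenic thymus. Ddit4, the mTORC1 inhibitor REDD1, read 10.81, 9.88 and 11.04 in the lines, against 8.83, 8.38 and 7.997 in labelled transgenic thymus and 8.62, 8.95 and 8.62 in wild-type thymus. Its difference was 1.85 ± 0.33 from wild-type thymus and 2.18 ± 0.38 from labelled transgenic thymus, without overlap.

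Of the remaining output genes, Stc2, a secreted glycoprotein, was high in 1 line alone. It read 7.98, 4.76 and 4.96 in the lines, against 5.21, 4.65 and 5.03 in labelled transgenic thymus and 5.28, 4.89 and 5.08 in wild-type thymus, and was detected in line 3 but not in lines 175 and 261. Herpud1, which takes part in degrading proteins of the endoplasmic reticulum, read 11.46 to 11.79 in the lines, 10.86 to 11.24 in labelled transgenic thymus and 11.04 to 11.46 in wild-type thymus, a difference of 0.31 ± 0.20 from wild-type thymus. Over the 6 output genes, the median difference from wild-type thymus was 2.03.

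**Figure D3:**
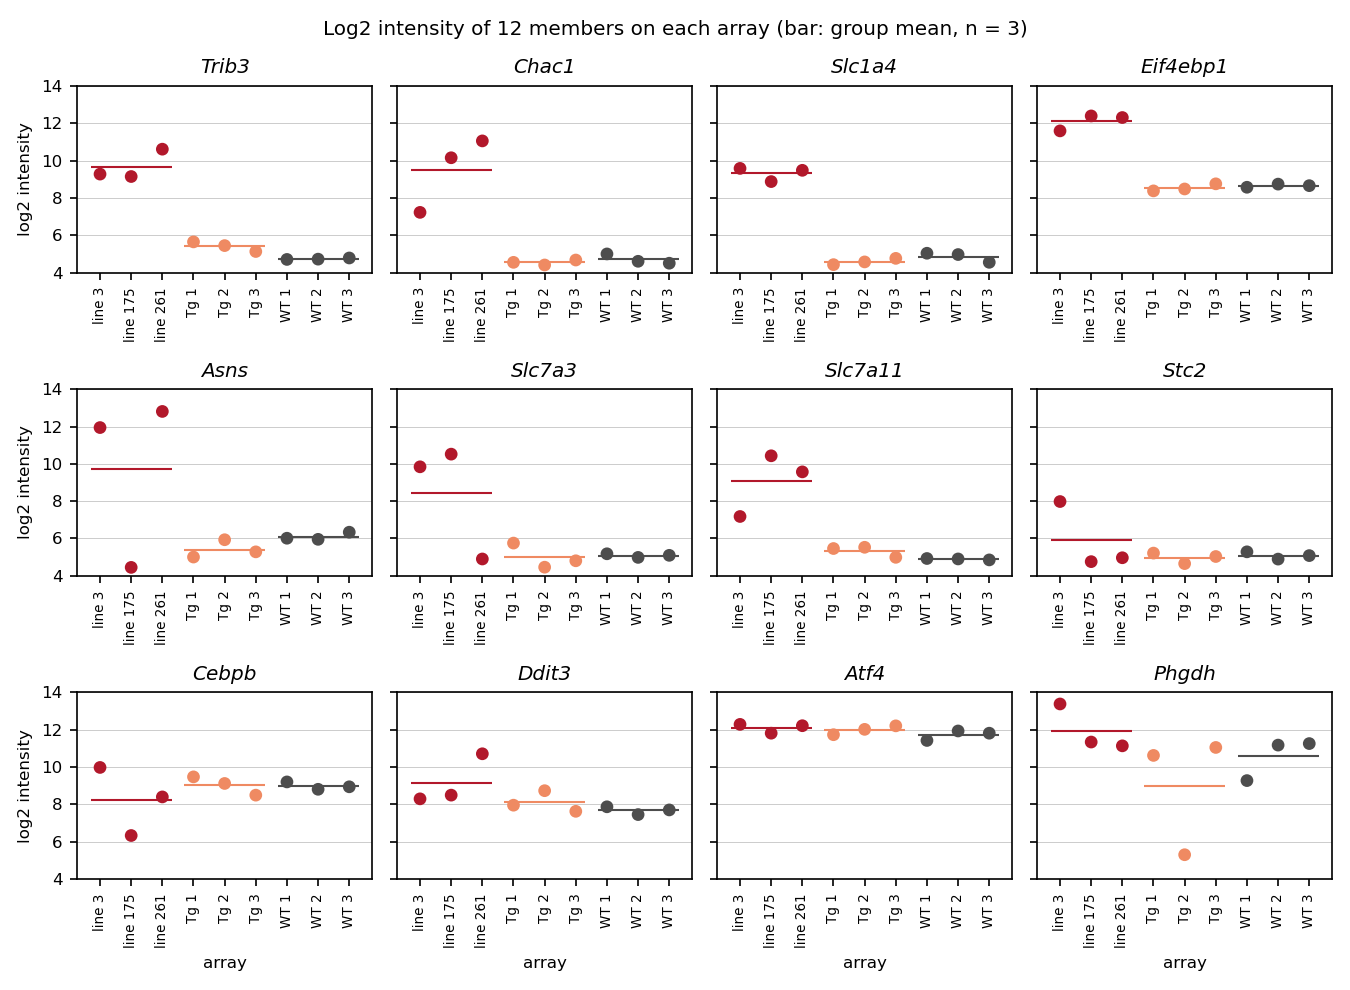
Log2 intensity of 12 members, 1 panel per gene, on each line (red), labelled transgenic (Tg, orange) and wild-type (WT, grey) array, with a bar at the mean of each group of 3 on an axis that starts at 4. Trib3, Chac1, Slc1a4, Eif4ebp1 and Slc7a11 are high in each line, Asns is at 4.45 in line 175 and at 11.94 and 12.81 in lines 3 and 261, and Atf4 is nearly level on the probe shown, its brighter one.

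Of the 4 measured serine and one-carbon enzymes, Shmt2, Mthfd2 and Psat1 read higher in every line than on every thymus array, and Phgdh overlapped wild-type thymus. Shmt2, the mitochondrial serine hydroxymethyltransferase, read 10.27, 11.11 and 10.95 in the lines, against 8.67, 8.81 and 8.94 in labelled transgenic thymus and 9.43, 9.66 and 9.22 in wild-type thymus. The 3 groups were fully separate, with the lines 1.35 ± 0.27 above wild-type thymus and 1.98 ± 0.28 above labelled transgenic thymus. Mthfd2, the next enzyme of the mitochondrial folate pathway, read 12.21, 12.76 and 13.25 in the lines, against 11.26, 10.86 and 11.55 in labelled transgenic thymus and 11.21, 11.36 and 11.48 in wild-type thymus. Psat1, a serine synthesis transaminase, read 12.48, 12.48 and 12.91 in the lines, against 11.47, 11.58 and 11.74 in labelled transgenic thymus and 11.68, 11.89 and 11.53 in wild-type thymus. For Mthfd2 and Psat1 every line exceeded every thymus array, with differences from wild-type thymus of 1.39 ± 0.29 and 0.92 ± 0.21.

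Phgdh, the first enzyme of serine synthesis, read 13.38, 11.34 and 11.14 in the lines, against 10.62, 5.30 and 11.05 in labelled transgenic thymus and 9.27, 11.18 and 11.26 in wild-type thymus. Line 3 was far above lines 175 and 261, which lay close to the thymus arrays other than labelled transgenic array 2 and wild-type array 1. Its difference from wild-type thymus was 1.38 ± 0.76. Without those 2 arrays the 4 remaining thymus arrays read 10.62 to 11.26, against a mean of 11.95 in the lines.

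The other amino acid enzymes included the member with the widest range among the lines. Asns, which makes asparagine and is a classical ATF4 target, read 11.94, 4.45 and 12.81 in the lines, against 5.002, 5.93 and 5.28 in labelled transgenic thymus and 6.01, 5.95 and 6.33 in wild-type thymus. Lines 3 and 261 were above all thymus arrays. Line 175 was not detected, and its value was the lowest of any array on this probe but not on the other Asns probes. Another probe read 10.33, 4.58 and 11.45 in the lines, and one detected only in lines 3 and 261 read 7.89, 4.54 and 8.42, so all 3 Asns probes gave the same order of presence. The range among the lines was at least 7.48 log2 units, with line 175 set at the lowest value of any detected probe on its array.

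Cth, which makes cysteine from cystathionine, read 7.70, 6.96 and 7.20 in the lines, against 4.63, 4.66 and 4.50 in labelled transgenic thymus and 4.86, 4.81 and 5.08 in wild-type thymus. Gpt2, the mitochondrial alanine transaminase, read 8.70, 8.76 and 9.11 in the lines, against 4.76, 4.75 and 4.49 in labelled transgenic thymus and 5.01, 4.72 and 5.24 in wild-type thymus. Both genes were present in every line and not detected in labelled transgenic thymus, where the folds were at least 4.69 for Cth and at least 13.96 for Gpt2. Gpt2 lay 3.87 ± 0.22 above wild-type thymus, where it was detected on 1 of the 3 arrays, and varied by less than 1 log2 unit among the lines. Aldh18a1, which starts proline synthesis, read 10.45, 10.06 and 10.64 in the lines, against 9.20, 9.97 and 9.15 in labelled transgenic thymus and 9.70, 9.22 and 9.14 in wild-type thymus, a difference of 1.03 ± 0.24 from wild-type thymus.

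Among the amino acid transporters, Slc1a4, Slc7a11 and Slc7a3 differed by several log2 units in at least 2 lines and the others by less. Slc1a4, a carrier of alanine, serine and cysteine, read 9.58, 8.88 and 9.48 in the lines, against 4.42, 4.57 and 4.76 in labelled transgenic thymus and 5.03, 4.96 and 4.55 in wild-type thymus. It was at least 19.1-fold above labelled transgenic thymus, in which it was not detected. Slc7a11, the cystine-glutamate exchanger xCT, read 7.18, 10.43 and 9.57 in the lines, against 5.46, 5.53 and 4.99 in labelled transgenic thymus and 4.92, 4.90 and 4.85 in wild-type thymus. Slc7a11 was at least 16.8-fold above wild-type thymus, where it was not detected, and line 3 was the lowest of the lines. Another Slc7a11 probe gave a difference of 2.21, and one near background on every array gave -0.22.

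Slc7a3, a carrier of cationic amino acids, read 9.84, 10.52 and 4.90 in the lines, against 5.75, 4.46 and 4.80 in labelled transgenic thymus and 5.18, 4.98 and 5.09 in wild-type thymus. It was high in lines 3 and 175 and not detected in line 261, whereas Asns was not detected in line 175. Its range among the lines was at least 5.19 log2 units. A dimmer probe of Slc7a3 read 5.48, 5.85 and 5.47 in the lines and did not show this pattern.

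Slc1a5, the glutamine carrier ASCT2, read 7.46, 7.004 and 7.33 in the lines, against 7.33, 4.48 and 6.90 in labelled transgenic thymus and 4.65, 6.51 and 7.30 in wild-type thymus. Labelled transgenic array 2 and wild-type array 1 were low on all 3 of its detected probes, and the other 4 thymus arrays read 6.51 to 7.33, against a mean of 7.26 in the lines. Slc3a2, the heavy chain that pairs with Slc7a5 and Slc7a11, read 6.54, 6.83 and 6.49 in the lines, against 5.35, 6.03 and 6.13 in labelled transgenic thymus and 5.68, 5.89 and 5.30 in wild-type thymus. Slc38a2, the neutral amino acid carrier SNAT2, read 11.75, 11.58 and 12.38 in the lines, against 12.48, 12.67 and 12.62 in labelled transgenic thymus and 11.86, 12.32 and 12.32 in wild-type thymus. On this probe it was the one member for which all 3 lines lay below all labelled transgenic arrays, by 0.69 ± 0.27. Its other detected probes gave -0.19 and 0.42 against labelled transgenic thymus, both with overlap, so this difference depends on the probe.

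The tRNA synthetases attach each amino acid to its tRNA in the cytoplasm, and 19 of the 20 listed were measured. Their median difference was 0.53 from wild-type thymus and 0.69 from labelled transgenic thymus, smaller than the medians of the other roles. Of the 19, 7 passed as higher against wild-type thymus and 5 against labelled transgenic thymus, and the lines lay above all wild-type arrays for 11. Over all genes, 12.1% passed as higher against wild-type thymus, 7.23% as higher against labelled transgenic thymus, and 24.6% had the lines above all wild-type arrays. The synthetases were uneven, with some more than 1 log2 unit higher and others close to no difference.

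Sars, for serine, read 10.32, 10.18 and 10.56 in the lines, against 8.37, 8.65 and 8.74 in labelled transgenic thymus and 8.80, 8.69 and 8.62 in wild-type thymus. Nars, for asparagine, read 10.83, 10.84 and 10.71 in the lines, against 9.29, 9.25 and 9.56 in labelled transgenic thymus and 9.45, 9.49 and 9.45 in wild-type thymus. Both lay more than 1 log2 unit above all 6 thymus arrays in every line, by 1.65 ± 0.18 for Sars and 1.33 ± 0.16 for Nars over wild-type thymus. Nars was even among the lines, in which Asns, the enzyme that makes its amino acid, was not.

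Aars, for alanine, read 11.75, 11.72 and 12.15 in the lines, against 10.45, 10.41 and 11.11 in labelled transgenic thymus and 10.37, 10.65 and 10.56 in wild-type thymus. Yars, for tyrosine, read 6.11, 6.31 and 6.32 in the lines, against 4.54, 5.10 and 5.14 in labelled transgenic thymus and 4.58, 4.91 and 5.003 in wild-type thymus. Aars was 1.35 ± 0.20 and Yars 1.41 ± 0.19 above wild-type thymus, without overlap with either thymus group. Tars, for threonine, read 8.93, 8.38 and 8.35 in the lines, against 6.96, 7.82 and 8.27 in labelled transgenic thymus and 7.20, 7.57 and 7.58 in wild-type thymus, 1.10 ± 0.24 above wild-type thymus. Cars, for cysteine, read 7.66, 7.92 and 8.04 in the lines, against 7.23, 7.66 and 7.48 in labelled transgenic thymus and 5.80, 7.01 and 7.43 in wild-type thymus, 1.13 ± 0.42 above wild-type thymus, where array 1 was low.

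Eprs, for glutamate and proline, read 10.56, 9.99 and 10.25 in the lines, against 9.34, 9.07 and 9.34 in labelled transgenic thymus and 9.53, 9.52 and 9.38 in wild-type thymus, with no overlap between the lines and thymus. Another Eprs probe gave 1.16 against wild-type thymus, also without overlap. The Eprs probe that was low on labelled transgenic array 2 and wild-type array 1 read 9.23, 8.32 and 8.50 in the lines and overlapped both thymus groups. Hars, for histidine, lay 0.89 ± 0.25 above wild-type thymus. Gars, Iars and Rars, for glycine, isoleucine and arginine, lay 0.77 ± 0.27, 0.51 ± 0.19 and 0.53 ± 0.20 above it, with every line above every thymus array.

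On their chosen probes, Kars, Mars1, Lars, Wars, Farsb, Qars, Vars and Farsa overlapped wild-type thymus, with differences between 0.40 and -0.14. For some of these the choice of probe decided the value. The probe chosen for Wars gave -0.05, while its 3 other detected probes gave 0.95, 1.02 and 1.19, and a second Kars probe gave 2.33 where the chosen one gave 0.40. The second Kars probe, and the Wars probe at 1.19, were among those low on labelled transgenic array 2 and wild-type array 1. Second probes of Lars and Mars1 gave 0.67 and 0.71 against wild-type thymus, both without overlap, and were not among those low probes. Over all 39 detected synthetase probes, 33 had a higher mean in the lines than in wild-type thymus, and 24 had all lines above all wild-type arrays, where the shares of all 19490 detected probes were 54.7% and 25.4%. Of the 28 members with more than 1 detected probe, 7 had a probe of opposite sign to the chosen one against wild-type thymus, namely Qars, Farsb, Hars, Slc38a2, Slc7a11, Vars and Wars. Against labelled transgenic thymus 4 had one, namely Qars, Slc38a2, Slc7a11 and Vars.

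**Figure D4:**
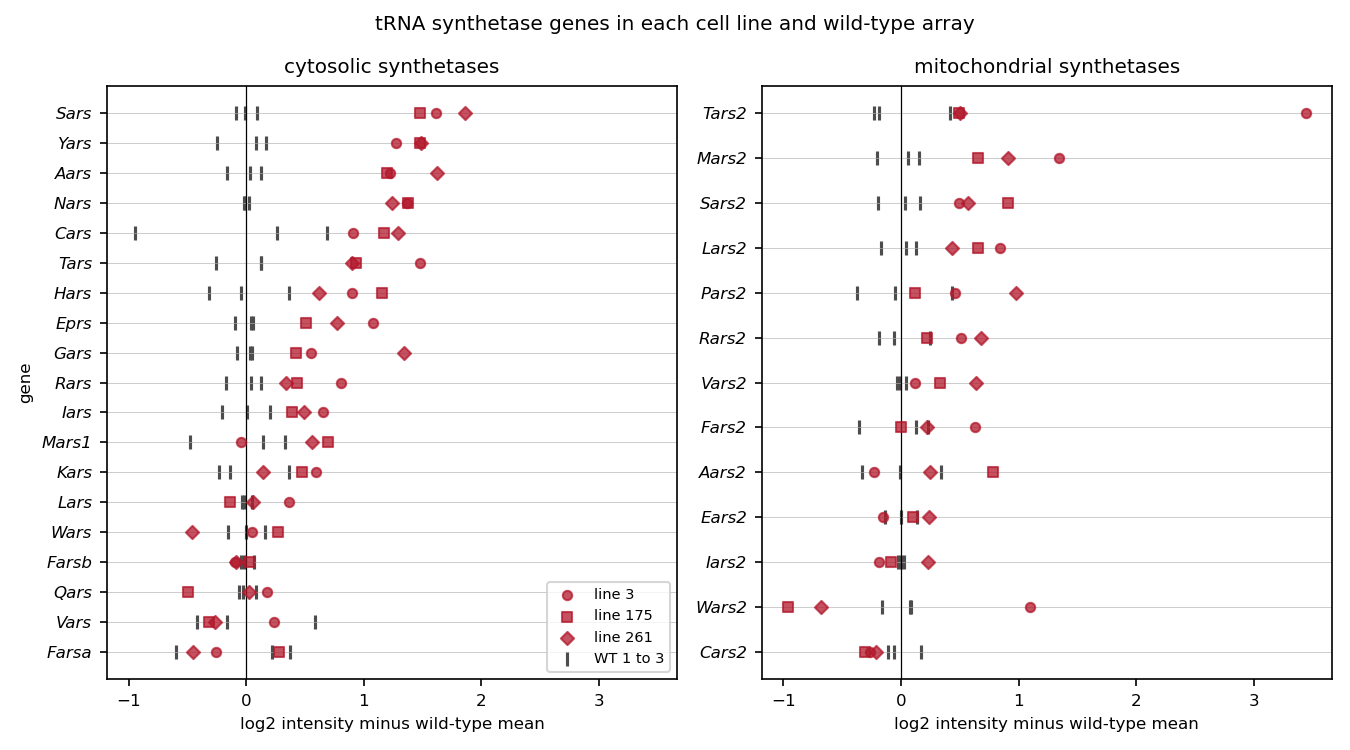
Log2 intensity minus the wild-type mean for 19 cytosolic (left) and 13 mitochondrial (right) tRNA synthetases, with a red symbol for each line and a grey tick for each wild-type array (WT). Sars, Yars, Aars and Nars lie clear of the wild-type arrays in all 3 lines, Lars, Qars, Farsa, Farsb and Vars overlap them, and most mitochondrial synthetases lie within 1 log2 unit.

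The lines differed from each other in which members were high. At least 1 log2 unit above all 6 thymus arrays were 16 members in line 3, 15 in line 175 and 20 in line 261, where the shares of all genes were 4.53%, 5.55% and 5.39%. In all 3 lines 10 of the 45 members met this, against 1.1% of all genes, namely Trib3, Chac1, Sesn2, Eif4ebp1, Cth, Gpt2, Slc1a4, Slc7a11, Sars and Nars. The probes for Chac1, Sesn2, Cth, Gpt2, Slc1a4 and Slc7a11 were detected on fewer than 3 thymus arrays. They therefore met the detection limit only through the lines, and the count is a description. For 27 members all lines lay above all 6 thymus arrays, as they did for 17.2% of all genes. The range among the lines exceeded 1 log2 unit for 13 of 45 members (28.9%), close to the 26.5% of all genes, with a median range of 0.67 against 0.62. After Asns and Slc7a3, the widest were Chac1 at 3.83, Cebpb at 3.65, Slc7a11 at 3.25, Stc2 at 2.65 or more, Ddit3 at 2.42 and Phgdh at 2.24. No line was the highest for all of these, since line 3 led in Cebpb, Stc2 and Phgdh, line 175 in Slc7a3 and Slc7a11, and line 261 in Asns, Chac1 and Ddit3. Each line is 1 array, so these differences between lines have no replicate check.

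Members with and without the promoter letters both included genes that were higher in the lines. The 11 measured members with the letters had a median difference of 1.41 from wild-type thymus, and the lines lay above all wild-type arrays for 10 of them, the exception being Asns. The 23 members with a window but without the letters had a median of 0.92, with the lines above for 12. The 11 members with no window in the table had a median of 1.11, with the lines above for 6. Over all genes, the lines lay above all wild-type arrays for 24.6%. Among the synthetases, those with the letters included Yars, Tars, Gars and Iars, and Sars did not hold them.

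Labelled transgenic thymus was also compared with wild-type thymus, where the programme differed little. None of the 45 members passed limma's adjusted threshold (0 of 45, where 4.68% of all genes passed, 2.29% as higher and 2.38% as lower), and 3 had an unadjusted p under 0.05, namely Trib3, Shmt2 and Asns. Trib3 was 0.67 ± 0.19 higher in labelled transgenic thymus (adjusted p = 0.117), at least 1.33-fold, and all 3 arrays exceeded all wild-type arrays. Shmt2 was lower by a log2 difference of -0.63 ± 0.19 (adjusted p = 0.138) and Asns by -0.69 ± 0.27 (adjusted p = 0.253), each without overlap. These 3 differences depended on the probe. The other detected probe of Asns gave 0.22 and that of Shmt2 -0.32, both with overlap. The other Trib3 probes, each detected on only 3 arrays, gave 0.07 and 0.05. The labelled transgenic arrays lay above all wild-type arrays for 3 members and below for 5, where the groups did not overlap for 22.3% of all genes, with 11.2% above and 11.1% below. The median difference over the members was -0.12. For Phgdh, the difference of -1.58 ± 1.45 rested on labelled transgenic array 2.

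Genes upstream of ATF4 were read from a list of 11 eIF2 kinases, their regulators and eIF2 phosphatase subunits, of which 7 were measured. Between the lines and wild-type thymus 2 of the 7 passed, both as lower, where 24.5% of all genes passed and 12.4% as lower, and the median difference was -0.22. Eif2ak2, the double-stranded RNA kinase PKR, fell by 1.01 ± 0.27 on the log2 scale (limma adjusted p = 0.0378), and Impact, an inhibitor of the amino acid sensing kinase GCN2, fell by 0.78 ± 0.22 (adjusted p = 0.0462). Against labelled transgenic thymus Impact passed as lower (adjusted p = 0.0464) and Eif2ak2 did not pass (adjusted p = 0.0601). Eif2ak3, the endoplasmic reticulum kinase PERK, read 7.31, 5.66 and 9.45 in the lines, against 4.92, 4.66 and 4.71 in labelled transgenic thymus and 5.59, 4.88 and 5.14 in wild-type thymus. It did not pass the threshold (2.27 ± 0.87, adjusted p = 0.100). Line 261 had the highest Eif2ak3 and the highest Ddit3 of the lines, but lines 3 and 175 were in the opposite order for Ddit3, at 8.30 and 8.49. A relation between these genes was not tested.

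Neighbouring pathways were mixed. Of 12 measured endoplasmic reticulum stress genes, 1 passed as higher and 3 as lower in the lines than in wild-type thymus, where 12.1% and 12.4% of all genes did, with a median of -0.55. Xbp1, the transcription factor of the IRE1 branch, fell by 1.78 ± 0.18 (adjusted p = 0.000879), Dnajb9, an endoplasmic reticulum chaperone partner, fell by 1.74 ± 0.27 (adjusted p = 0.00649), and Ern1, which encodes IRE1, fell by 1.80 ± 0.45 (adjusted p = 0.0300). Edem1, which directs misfolded glycoproteins to degradation, rose by 1.69 ± 0.32 (adjusted p = 0.0117). Against labelled transgenic thymus Xbp1 and Dnajb9 passed as lower and Sdf2l1, another endoplasmic reticulum stress gene, as higher, while Ern1 (adjusted p = 0.195) and Edem1 (adjusted p = 0.124) did not pass. In that comparison 7.23% of all genes passed as higher and 8.45% as lower. Of 13 measured mitochondrial tRNA synthetases, which the cytoplasmic list does not contain, 1 passed as higher than in wild-type thymus, where 12.1% of all genes did. This was Mars2, 0.97 ± 0.24 higher (limma adjusted p = 0.0280), and the median of the 13 was 0.36. Tars2, the mitochondrial threonine enzyme, was high in line 3 alone, at 12.10, 9.15 and 9.16 in the lines, 8.28 to 8.87 in labelled transgenic thymus and 8.43 to 9.07 in wild-type thymus. The 4 other one-carbon enzymes measured had a median of -0.24 and the 3 scaffold genes of the multisynthetase complex one of 0.38, and no gene of either list passed against wild-type thymus. Against labelled transgenic thymus 1 gene of each list passed as higher, where 7.23% of all genes did. These were Shmt1 (limma adjusted p = 0.0476) and Aimp2 (limma adjusted p = 0.0304), and the list medians were 0.22 and 0.75. Of 8 measured cell cycle genes, 3 passed as higher than in wild-type thymus, namely Ccne1, Birc5 and Plk1, where 12.1% of all genes did. The median of the 8 was 0.39, and the part of cell division in the differences above was not tested.

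The values of dim genes depend on how background was handled. Without background correction, the fitted difference between the lines and wild-type thymus was 0.94 for Cth, 2.01 for Gpt2 and 0.45 for Yars. With it the values were 2.37, 3.87 and 1.41, and each of these genes was detected on 1 of the 3 wild-type arrays. For Trib3, Chac1 and Slc7a11, not detected in wild-type thymus, the fitted differences were 2.79, 2.75 and 2.30 without it and 4.95, 4.78 and 4.17 with it, and these are no bounds. Leaving out 1 array moved the count of members that passed against wild-type thymus, 22, to 14 without wild-type array 1, 14 without wild-type array 2 and 10 without wild-type array 3. The share of all genes that passed moved too, to between 9.66 and 29.6% over all refits without 1 array, against 24.5% with every array. Of the listed genes not measured, Atf3, Psph and Cbs were detected on 0 arrays, Slc7a1 on 1 and Nupr1 on 2, and Pycr1, Slc7a5 and Dars had no probe under their symbol.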

How the data were processed

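Intensities (probe brightness on a linear scale, not background corrected) and a detection p-value per probe were deposited by the authors for 9 arrays. The submitters' processing notes list BeadStudio and limma, without versions. The authors also deposited normalized log2 values, used as an alternative. The intensity values were corrected and quantile normalized with neqc in limma 3.58.1 (R 4.3.3), with an offset of 16. Probes detected at p under 0.05 on at least 3 arrays were kept (19490 of 45281), and symbols came from the platform annotation. Genes were compared 2 groups at a time with lmFit and eBayes over all 10072 genes, with Benjamini-Hochberg adjustment at 0.05, 3 arrays a group. The steps were tested on simulated data. The members, lists and tests were chosen with earlier results of these data known. By rule, members whose log2 difference was at least 1 in a comparison without overlap of its groups, or whose range among the lines exceeded 1, have every array's value given; some others were added after their values were seen. The alternatives were no background correction, another offset, other normalization, filters, probe choices and fits, a replicate block and each array left out. Sequences and their coordinates came from a RefSeq promoter table (GRCm38.p6). The number of arrays limits the precision. Not every promoter window is reported here.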

Additional observations from a re-analysis of the deposited data

How the results depend on the processing

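Of 661 values of single members under an alternative, 592 kept their direction and side of the threshold, 68 kept the direction but no longer passed, 1 newly passed and 0 reversed. They cover only members whose groups did not overlap in the main fit and, where lines were compared, whose difference was at least 1 log2 unit. Other members were left out, so the absence of reversals does not describe them. Genes that passed were 24.5% (2469) between the lines and wild-type thymus, 15.7% (1579) between the lines and labelled transgenic thymus and 4.68% (471) between labelled transgenic and wild-type thymus, and the members among them were 22, 18 and 0. With genes detected on all 9 arrays, which tests fewer genes, 22.4% (1545) and 14 members passed in the first comparison, 11 members in the second and 1.44% (99 genes) in the third. One fit over all 9 arrays gave 27.7% (2794) for the lines against labelled transgenic thymus and 2.98% (300) for labelled transgenic against wild-type thymus.

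With 1 array left out, 9.66 to 29.6% of genes and 10 to 20 members passed for the lines against wild-type thymus, 4.41 to 14.5% and 10 to 17 members for the lines against labelled transgenic thymus, and 1.53 to 5.45% and 0 members for labelled transgenic against wild-type thymus. Member counts moved over 1.5 times without wild-type array 1, 2 or 3 (14, 14 and 10) and, against labelled transgenic thymus, without its array 1 (10), its array 2 (11) or line 175 (11). Without both labelled transgenic array 2 and wild-type array 1, an alternative chosen after seeing the data, 2.79% (281 genes) and 0 members passed between labelled transgenic and wild-type thymus. The cause was not tested.

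Same-numbered arrays were not treated as pairs in the main fits. Their deviations from the group means correlated at -0.148 to 0.155. Differently numbered arrays were not set beside them, so these values cannot show whether the samples are paired. A block for the replicate number gave 13.9% (1396), 6.46% (651) and 2.91% (293) of genes and 17, 12 and 0 members in the 3 comparisons. The count of members with a range over 1 log2 unit among the lines was 13, and 11 to 13 under the alternatives. With 3 arrays a group and dim probes near background, small differences are not resolved.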
